A study of Rattus norvegicus with 23 samples.

Results

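Complement and coagulation factors of liver were followed as a group of 47 genes across cultures of rat liver cells. Only probe sets that name 1 gene were used, and where a gene had several, the brightest on average across the 23 arrays stood for it. This gave 40 of 47 genes, out of 14217 genes in the whole series. C2, Cfb and Kng1 lie only on probe sets that name several genes, and Cd59, F7, F11 and F13b matched none. Of the 40 genes, 22 belong to complement and 18 to coagulation, its inhibitors and fibrinolysis. No filter on low values was applied, so each of the 40 genes was tested.

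Rat Genome arrays of Affymetrix recorded RNA levels of 8 groups. LSECs (liver sinusoidal endothelial cells) came from the 3DHLK model, which holds hepatocytes, LSECs and KCs (Kupffer cells, the macrophages of the liver), and from the 3DHL model without KCs. KCs came from the 3DHLK model, and hepatocytes from 3DHLK, 3DHL, collagen sandwiches (CS) and hepatocyte monolayers (HM), all at day 12. KC monolayers, which the labels call KCs before the 3D culture, were taken at day 3 and serve as the group without hepatocytes. Each group had 3 arrays, except the KCs of 3DHLK with 2 that passed the authors' check of RNA quality. Hepatocytes and LSECs came from the same isolations of female Lewis rats, with no age given in the sources used here, while KCs were bought frozen, and no group carried a genetic change or received a drug. In both 3D models a membrane of chitosan and hyaluronic acid lay over the hepatocytes and carried the other cells, which were later pulled off with beads against SE-1 (LSECs) and then CD163 (KCs). Day, medium and culture differ together between KC monolayers and the other groups and cannot be told apart.

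Complement is a cascade of plasma proteins that tags and lyses microbes. It is started by C1 or by mannose-binding lectins, passes through C3 and ends in a pore of C5 to C9. Coagulation is a cascade of proteases that ends with thrombin turning fibrinogen into fibrin, which plasmin later dissolves. Hepatocytes make most of these plasma proteins, while macrophages are known for complement receptors, C1q, factor D and properdin.

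Marker genes were set beside the labels before the factors were compared. Over 24 hepatocyte markers the mean log2 level was 12.19 to 12.89 in the hepatocyte and LSEC groups and 11.73 in the KCs of 3DHLK, against 7.42 in KC monolayers. Over 17 macrophage markers it was 6.93 ± 0.19 (SD, n = 2) in the KCs of 3DHLK, 6.51 to 8.0 in the other groups of cultures that hold hepatocytes, and 12.31 ± 0.17 (SD, n = 3) in KC monolayers. Over 23 endothelial markers it was 6.40 in LSECs of 3DHLK and 6.24 in LSECs of 3DHL, within the range of 6.07 to 6.90 over all groups. The macrophage marker Adgre1 averaged 5.38 in the KCs of 3DHLK and 12.91 in KC monolayers. The sinusoidal marker Stab2 averaged 5.98 in LSECs and 5.46 in hepatocytes of 3DHLK. It averaged 6.36 in the KCs of 3DHLK, 5.87 in CS and 5.88 in KC monolayers. In LSECs and hepatocytes of 3DHLK the endothelial marker Lyve1 averaged 5.88 and 5.83, and Pecam1 6.19 and 6.15. Albumin (Alb) averaged 14.53 in LSECs of 3DHLK, 14.38 in KCs of 3DHLK, 14.57 in hepatocytes of 3DHLK and 10.65 ± 1.15 (SD, n = 3) in KC monolayers, whose array medians were 7.41 to 7.46, so Alb was well above the median in the group without added hepatocytes too. In the 3DHLK groups Alb lay close to the highest value of any probe set on an array (14.6 to 14.8). Near-equal Alb levels there therefore do not show equal amounts of hepatocyte RNA. The KC group of 3DHLK thus went against its label, with macrophage markers far below those of KC monolayers. The LSEC groups had hepatocyte markers at hepatocyte level and endothelial list means not set apart from other groups. Of 23 endothelial markers 12 were higher and 6 lower in LSECs than in hepatocytes of 3DHLK, where 34.7% of all genes were higher and 25.7% lower. In 3DHL 4 of 23 were higher and 2 lower, where 18.5% of all genes were higher and 21.9% lower. These groups are called LSEC fraction and KC fraction here. What part hepatocyte RNA has in the levels of these fractions was not tested, and in bulk RNA fewer cells of a type and less RNA per cell cannot be told apart.

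All values are log2 values per probe set, so levels are compared between groups for one gene and not from gene to gene. Levels set against an array median, the highest value on an array or another probe set are a rough guide only. Array medians were 7.41 to 7.53, and the median SD over genes was 0.32 in KC monolayers and 0.09 to 0.15 in the other groups. Groups were compared with limma on all 23 arrays with 1 shared estimate of the spread, and a gene was called at an adjusted p under 0.05 over all 14217 genes. With 1 shared spread, p-values can come out too small where KC monolayers enter and too large in other comparisons. Whether replicates stem from separate animals is not in the labels, so p-values reflect only how far these samples scatter, and that scatter may be technical.

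Several of the genes lie side by side in the rat genome, and these are shown because they moved together or apart below. In GRCr8 of RefSeq the fibrinogen genes Fgg (chr2:170652929-170660372), Fga (chr2:170672169-170679572) and Fgb (chr2:170693966-170700875) are neighbours. So are C4bpa (chr13:44627959-44663552) and C4bpb (chr13:44673064-44683781), and C1r (chr4:159099013-159109770) and C1s (chr4:159116549-159128736). The 150 bases before the start site follow for Fga (chr2:170672019-170672168, plus strand), Fgb (chr2:170700876-170701025, minus strand), C4bpb (chr13:44683782-44683931, minus strand) and Plg (chr1:50915407-50915556, minus strand), 4 genes that the comparisons turn on. Capitals mark letters of the liver motifs searched on both strands, which are an HNF1 half-site (GTTAAT), C/EBP (TTGCNNAA), STAT (TTCNNNGAA), HNF4 (CAAAGTCCA) and FOXA (TGTTTAC).
Fga: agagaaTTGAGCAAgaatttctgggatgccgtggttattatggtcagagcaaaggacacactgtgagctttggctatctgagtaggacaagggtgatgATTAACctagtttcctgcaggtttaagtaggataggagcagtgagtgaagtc
Fgb: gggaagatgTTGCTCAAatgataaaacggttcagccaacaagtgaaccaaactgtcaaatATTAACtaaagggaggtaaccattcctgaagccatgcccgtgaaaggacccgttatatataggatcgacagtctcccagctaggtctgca
C4bpb: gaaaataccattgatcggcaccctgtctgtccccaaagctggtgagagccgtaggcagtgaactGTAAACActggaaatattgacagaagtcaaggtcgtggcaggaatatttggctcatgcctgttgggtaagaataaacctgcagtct
Plg: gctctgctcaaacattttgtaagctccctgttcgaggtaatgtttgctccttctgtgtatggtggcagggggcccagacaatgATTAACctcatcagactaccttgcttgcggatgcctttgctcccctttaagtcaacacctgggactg

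Fga and Fgb each showed 1 C/EBP and 1 HNF1 match in this stretch, Plg 1 HNF1 match and C4bpb 1 FOXA match, and no matches overlapped. Over the 250 bases before the start, 31 of the 40 genes had a sequence in the RefSeq table. The HNF1 half-site was found in 10 of these 31 (32.3%) and in 7.13% of 27457 genes. C/EBP letters were found in 11 of 31 (35.5%) and in 9.99% of all genes, STAT letters in 6 of 31 (19.4%) and 8.19%, and FOXA letters in 4 of 31 (12.9%) and 3.54%. HNF4 letters were in none of the 31 and in 0.393% of all genes. A match is a description of the letters and not a site in use.

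Of the 40 genes, 33 were lowest in KC monolayers and 4 were highest there. The group means of a gene spanned a median of 4.15 log2 units over all groups and 1.40 without the KC monolayers. No gene spanned under 1 log2 unit over all groups, while 10 did so without the KC monolayers. In KC monolayers 17 of 40 genes lay above the median of their arrays, against 34 to 36 of 40 in every other group. The LSEC fraction of 3DHLK held the highest mean for 13 genes, CS hepatocytes for 12 and hepatocytes of 3DHLK for 8. These ranks and spans were not counted over all genes, so they describe the 40 genes and give no excess over other genes. KC monolayers differed from the KC fraction in many genes, with 44.5% of all genes called higher in the KC fraction and 20.8% lower.

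**Figure D1:**
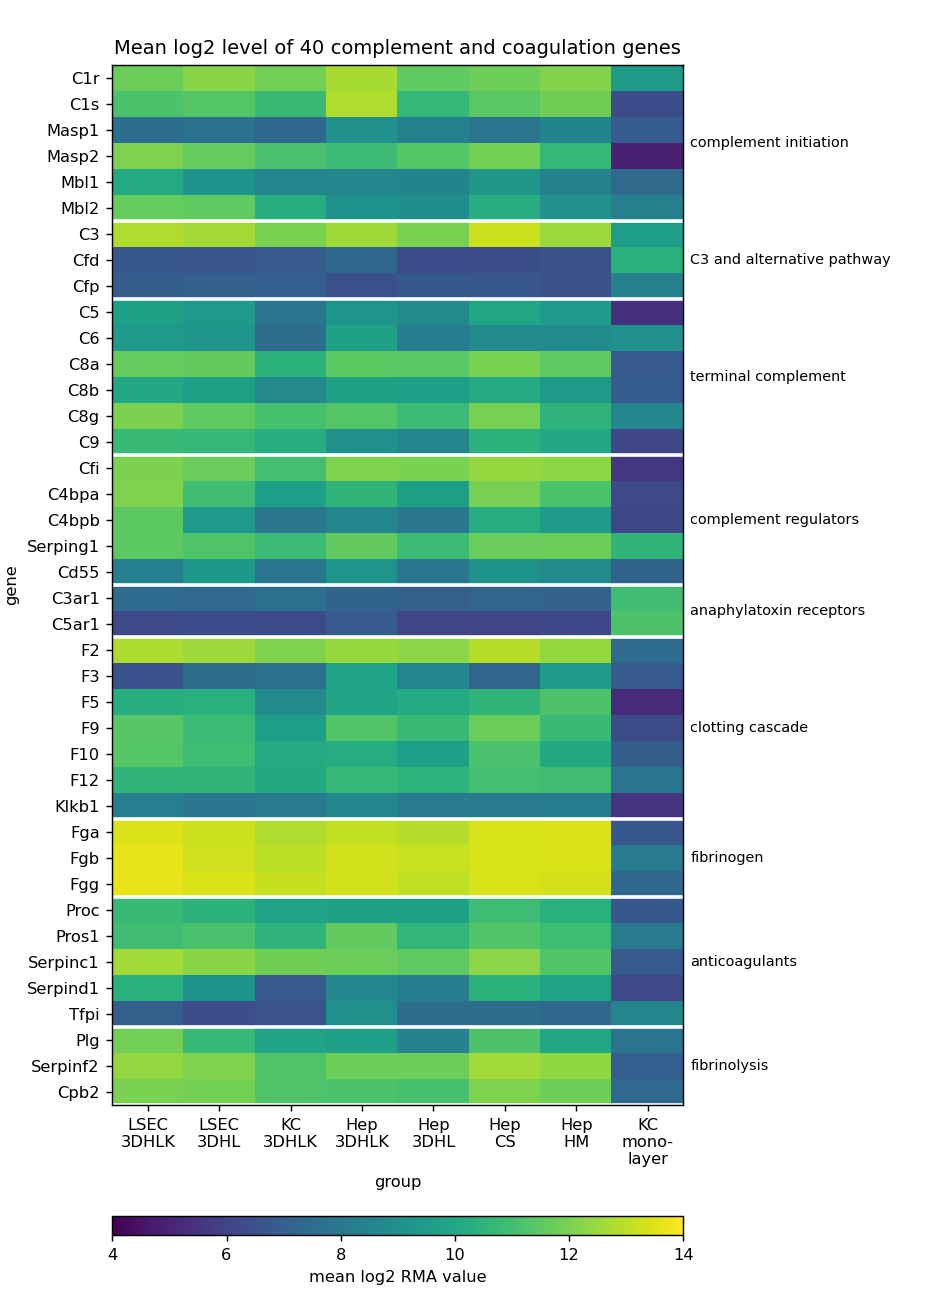
Mean log2 RMA value of 40 genes (rows, by role) in 8 groups (columns). Colours are comparable along a row, and 33 genes are lowest in the KC monolayers at the right while Cfd, Cfp, C3ar1 and C5ar1 are highest there.

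The first question was how the factors differ between cells with and without hepatocytes. In the KC fraction of 3DHLK 32 of 40 genes were higher than in KC monolayers and 6 were lower, where 44.5% of all genes were called higher and 20.8% lower. The median change was 2.44 for the 40 genes and 0.27 over all genes. In HM hepatocytes 34 genes were higher than in KC monolayers and 5 were lower, where 44.7% of all genes were higher and 25.4% lower, with medians of 3.11 and 0.22. Both comparisons use the same KC monolayer arrays. Of the 24 hepatocyte markers 23 were higher in the KC fraction (median 4.79), and of the 17 macrophage markers all 17 were lower (median -5.27).

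The fibrinogen chains were among the members that differed most. Fga, the alpha chain, read 12.77 and 12.84 in the KC fraction and 13.44, 13.41 and 13.49 in HM hepatocytes, against 6.92, 5.73 and 7.52 in KC monolayers. The KC monolayer arrays spread widely, and the groups were far apart. The KC fraction exceeded KC monolayers by 6.08 ± 0.28 log2 units (SE, limma adjusted p = 2.56e-14) and HM by 6.72 ± 0.25 (adjusted p = 3.51e-16). Fgg, the gamma chain, was higher by 5.80 ± 0.23 in the KC fraction (adjusted p = 2.17e-15) and by 6.02 ± 0.21 in HM (adjusted p = 8.44e-17), and Fgb, the beta chain, by 4.93 and 5.34. The size depended on the probe set. A further one of Fga gave 3.55 in the KC fraction and 4.29 in HM, and a pair of further ones for Fgb gave 0.59 and 0.24 in the KC fraction and 0.70 and -0.29 in HM. That pair averaged only 4.08 to 5.42 in every group, hepatocytes included, well below the array medians. The Fgb probe set used averaged 13.01 in the KC fraction, so the pair says little about the size of the change.

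All 7 genes of the clotting cascade were higher in both comparisons, although to very different degrees. F2 (prothrombin) was higher by 4.58 in the KC fraction and 4.94 in HM, and F5, the cofactor of factor Xa, by 3.52 and 5.95. F9 and F10, proteases of the cascade, were higher by 3.27 and 3.15 in the KC fraction, and by 4.46 and 3.11 in HM. F12 and Klkb1, of the contact pathway, were higher by 2.22 and 2.67 in the KC fraction, and by 3.11 and 2.73 in HM. F3, the tissue factor that starts clotting on cell surfaces, was higher by 0.75 in the KC fraction and by 2.66 in HM. Its levels were 7.82 and 7.44 in the KC fraction and 9.53, 9.58 and 9.52 in HM, against 6.89, 6.81 and 6.95 in KC monolayers.

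Inhibitors of clotting split. Serpinc1 (antithrombin), Proc (protein C) and its cofactor Pros1 (protein S) were higher in the KC fraction by 4.99, 3.04 and 2.44, and in HM by 4.44, 3.59 and 2.81. Serpind1 (heparin cofactor II) was higher by 0.63 in the KC fraction (adjusted p = 0.0301) and by 3.54 in HM, and its call in the KC fraction was lost under 6 of 11 alternatives, among them leaving out either array of the KC fraction. Tfpi, the inhibitor of the tissue factor pathway, changed by -2.03 ± 0.17 in the KC fraction (adjusted p = 1.04e-09) and by -1.21 ± 0.15 in HM (adjusted p = 4.33e-07). A further probe set of Tfpi gave -1.67 in the KC fraction and -0.45 in HM, where it was not called (adjusted p = 0.0764). The probe set used for Tfpi read 6.63 and 6.47 in the KC fraction, against 9.01, 8.22 and 8.50 in KC monolayers. The 3 genes of fibrinolysis were higher in both, with Serpinf2 (alpha-2-antiplasmin) at 4.25 and 5.34, Cpb2 (a carboxypeptidase that slows fibrinolysis) at 3.82 and 4.37, and Plg (plasminogen) at 2.0 and 2.11.

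Complement held both the largest rise and all but 1 of the falls in the KC fraction. Masp2, a protease of the lectin pathway, read 11.33 and 10.95 there, against 4.54, 5.04 and 5.10 in KC monolayers, a difference of 6.25 ± 0.20 (adjusted p = 6.78e-17). Its other probe sets gave 1.37 and -0.36, so the size depends on the probe set. Cfi, the protease that inactivates C3b, was higher by 5.42 in the KC fraction and by 6.69 ± 0.17 in HM (adjusted p = 4.94e-19). C1s and C1r, the proteases of C1, were higher by 4.40 and 2.42 in the KC fraction, and by 5.46 and 2.65 in HM. The lectins Mbl1 and Mbl2 were higher by 1.13 and 1.88 in the KC fraction and by 0.96 and 0.70 in HM, and a further probe set of Mbl2 gave 3.91 and 2.85. Masp1, a further lectin pathway protease, was higher by 0.46 in the KC fraction and 1.58 in HM, but its further probe sets gave -0.48 and -0.74 in the KC fraction and -0.53 and 0.54 in HM.

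Among the central and terminal components, C3 was higher by 2.36 in the KC fraction and 2.89 in HM, and C5 by 2.56 and 4.11. The pore subunits C8a, C8b, C8g and C9 were higher by 1.79 to 4.10 in the KC fraction and by 1.86 to 4.72 in HM. C6, which binds C5b in the pore, behaved otherwise. It read 7.45 and 7.72 in the KC fraction and 8.80, 8.84 and 8.81 in HM, against 9.37, 8.91 and 8.94 in KC monolayers. The change was -1.49 ± 0.14 in the KC fraction (adjusted p = 8.13e-09) and -0.25 ± 0.13 in HM (adjusted p = 0.0856), the only gene of the 40 not called in HM. C4bpa and C4bpb, the chains of the C4b-binding protein, were higher by 3.42 and 1.80 in the KC fraction and by 4.96 and 3.30 in HM. Serping1, the C1 inhibitor, and Cd55, which speeds the decay of C3 convertases, were higher by 1.20 and 1.57 in HM and had changes of 0.26 (adjusted p = 0.174) and 0.65 (adjusted p = 0.0501) in the KC fraction. A further probe set of Cd55 was called higher in the KC fraction, by 1.0 (limma adjusted p = 0.000147), and gave 2.29 in HM.

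Only 4 genes had their highest mean in KC monolayers. C5ar1, the receptor of the anaphylatoxin C5a, read 6.24 and 6.28 in the KC fraction and 5.89, 6.64 and 6.03 in HM, against 11.61, 10.89 and 11.15 in KC monolayers. The changes were -4.96 ± 0.22 in the KC fraction (adjusted p = 1.6e-14) and -5.03 ± 0.20 in HM (adjusted p = 9.82e-16). C3ar1, the receptor of C3a, changed by -3.23 ± 0.14 in the KC fraction (adjusted p = 5.08e-15) and by -3.82 ± 0.12 in HM (adjusted p = 1.94e-17). The KC fraction averaged 7.71 for C3ar1, against 7.03 to 7.51 in the hepatocyte and LSEC groups. Cfd (factor D, the protease that cleaves factor B) changed by -3.46 ± 0.17 in the KC fraction (adjusted p = 5.14e-14) and by -3.86 ± 0.15 in HM (adjusted p = 5.8e-16). Cfp (properdin, which stabilises the C3 convertase of the alternative pathway) changed by -1.34 and -1.85.

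**Figure D2:**
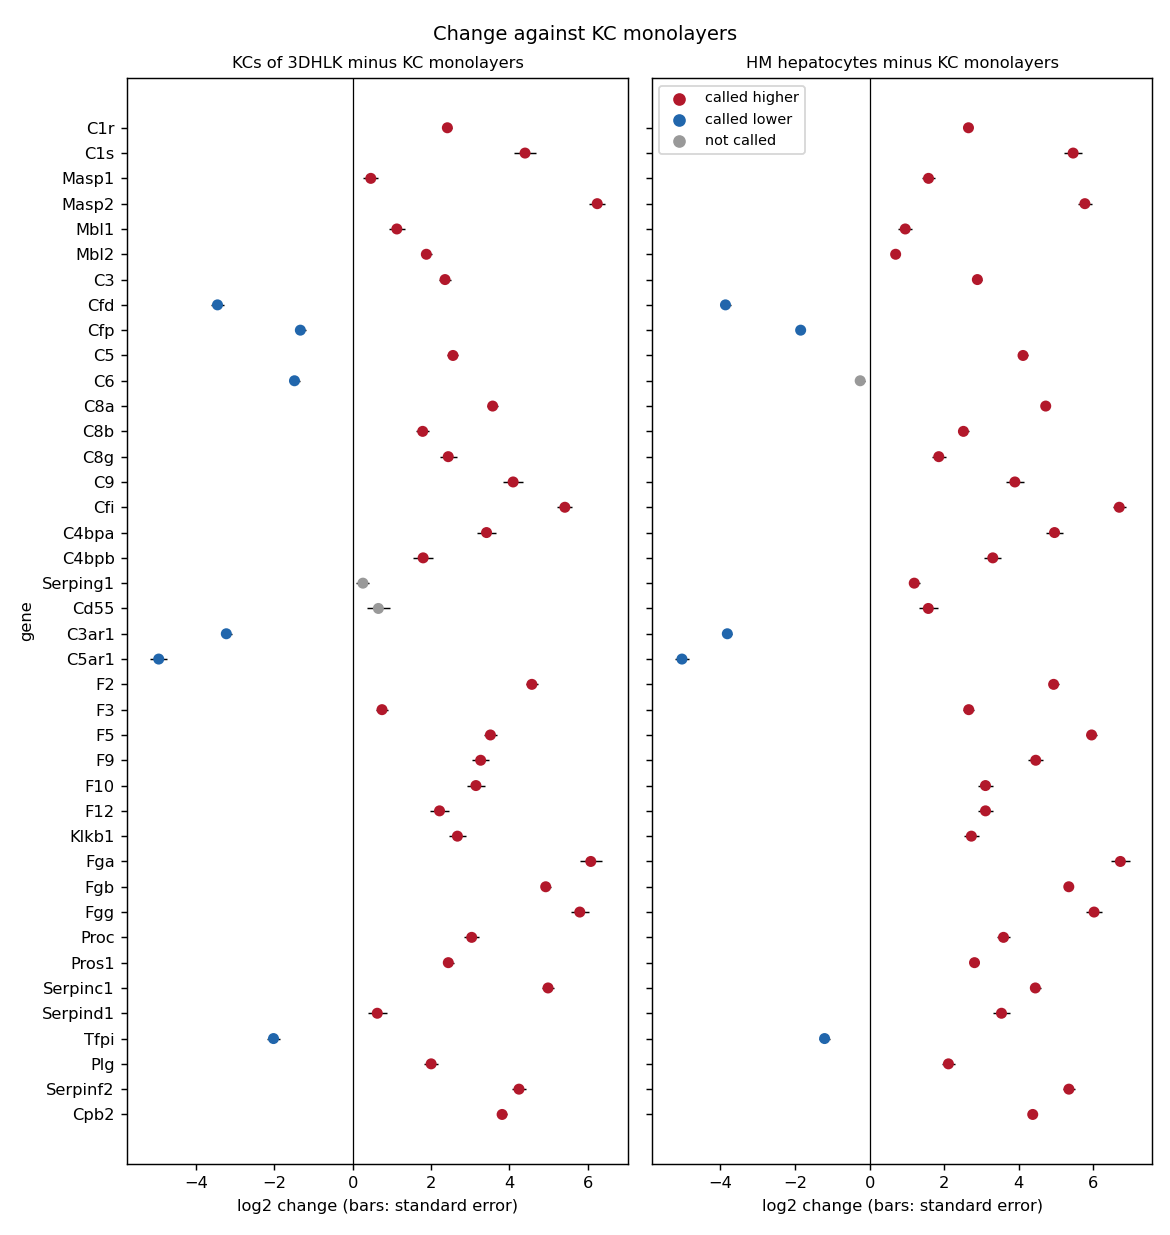
Log2 change against KC monolayers (x axis) for 40 genes (rows, by role), for the KC fraction of 3DHLK at the left and HM hepatocytes at the right, with standard errors as bars. C5ar1, Cfd, C3ar1, Cfp and Tfpi lie left of 0 in both panels, and C6 is called only in the KC fraction.

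Of 17 further complement genes 3 were higher and 10 lower in the KC fraction than in KC monolayers. The lower ones included C1qa, a chain of C1q, at -5.81, and Itgb2, the beta chain of complement receptor 3, at -4.99, while the fluid-phase regulators Clu (clusterin) and Vtn (vitronectin) were higher by 5.98 and 4.36. Of 32 further coagulation genes 15 were higher and 8 lower. Plau (urokinase) changed by -6.74 and Thbd (thrombomodulin) by -2.48, and the protease inhibitors Serpina1 and A2m by 5.95 and 5.41. In HM hepatocytes 5 and 17 of the same lists were higher and 11 and 10 lower, with Clu at 6.70, Vtn at 5.57, Serpina1 at 6.25 and A2m at 5.82. Among the lower ones in HM were C1qa at -5.81, Itgb2 at -5.37, the protease inhibitor Tfpi2 at -2.46 and Fgl2, a fibrinogen-like protein, at -2.17.

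The next question was whether the LSEC fraction differs from hepatocytes of the same model. In 3DHL 22 of 40 genes were higher in the LSEC fraction and 3 were lower, where 18.5% of all genes were higher and 21.9% lower. The median change was 0.37 for the 40 genes and 0.02 over all genes. In 3DHLK 20 were higher and 9 lower, where 34.7% of all genes were higher and 25.7% lower, with medians of 0.33 and 0.11. Of these, 15 genes were higher in both models, 15 of 22 in 3DHL and 15 of 20 in 3DHLK, where 16.1% of all genes were higher in both. All 3 genes lower in 3DHL were lower in 3DHLK as well, where 15.8% of all genes were lower in both. C1r, C1s, Cd55 and Pros1 were higher in the LSEC fraction than hepatocytes of 3DHL and lower than those of 3DHLK, as were 0.302% of all genes. Of the 24 hepatocyte markers 7 were higher and 3 lower in the LSEC fraction of 3DHL, and 12 higher and 3 lower in 3DHLK.

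Mbl2, a lectin that binds mannose on microbes, was higher in the LSEC fractions of both models. It read 11.61, 11.59 and 11.73 in the LSEC fraction of 3DHLK, against 9.13, 9.33 and 9.0 in hepatocytes, and 11.57, 11.56 and 11.56 in the LSEC fraction of 3DHL, against 8.98, 8.90 and 8.79 in hepatocytes. The groups did not overlap in either model, but lack of overlap was not counted over all genes. The LSEC fraction exceeded hepatocytes by 2.49 ± 0.12 in 3DHLK (adjusted p = 1e-12) and by 2.67 ± 0.12 in 3DHL (adjusted p = 1.05e-12). A further probe set of Mbl2 gave 2.17 and 2.59.

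Plg, the zymogen of plasmin, was higher in the LSEC fraction by 2.25 ± 0.17 in 3DHLK (adjusted p = 4.05e-10) and by 2.26 ± 0.17 in 3DHL (adjusted p = 1.33e-09). It read 11.69, 11.95 and 11.99 in the LSEC fraction of 3DHLK, against 9.60, 9.85 and 9.43 in hepatocytes of 3DHLK. C9, which polymerises into the lytic pore, was higher by 1.75 ± 0.23 in 3DHLK and by 2.13 ± 0.23 in 3DHL (adjusted p = 5.88e-07). C4bpb was higher by 2.89 ± 0.23 in 3DHLK (adjusted p = 1.28e-09) and by 1.47 ± 0.23 in 3DHL, and C4bpa by 1.53 and 1.25. Fga, Fgb and Fgg differed by 0.33 to 0.38 in 3DHLK, where Fgb was called, and by 0.12 to 0.36 in 3DHL, where none was. A further probe set of Fga was called in both, at 0.69 in 3DHLK (limma adjusted p = 0.00599) and 0.59 in 3DHL (adjusted p = 0.0258).

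Tissue factor, F3, went the other way. It read 6.78, 6.47 and 6.36 in the LSEC fraction of 3DHLK, against 9.89, 9.71 and 9.78 in hepatocytes, a change of -3.26 ± 0.14 (adjusted p = 2.07e-13). In 3DHL the change was -0.98 ± 0.14 (adjusted p = 1.93e-05). Its inhibitor Tfpi changed by -1.99 ± 0.15 in 3DHLK (adjusted p = 8.48e-10) and by -1.21 ± 0.15 in 3DHL (adjusted p = 4.03e-06). C1s changed by -1.65 ± 0.25 in 3DHLK (adjusted p = 1.16e-05). Masp1 changed by -0.63 ± 0.17 in 3DHL (adjusted p = 0.00643) and by -1.46 in 3DHLK, but a further probe set was higher in the LSEC fraction of 3DHLK by 1.25, and another gave -0.11, so its direction depends on the probe set. This holds for Cfp in both models and for Masp2 in 3DHLK too. Stellate cell and fibroblast markers moved with the lower genes, since 16 of 19 were lower in the LSEC fraction than in hepatocytes of 3DHLK (median -4.13), with list means of 6.17 to 6.51 on LSEC arrays and 10.01 to 10.28 on hepatocyte arrays. In 3DHL 10 of 19 were lower (median -0.78). Of 17 macrophage markers 13 were lower in the LSEC fraction of 3DHLK (median -1.20). Of the 4 genes highest in KC monolayers, C5ar1 and Cfd were lower in that fraction by limma, at -0.69 and -0.68. C3ar1 was called higher, with means of 7.51 in the LSEC fraction and 7.22 in hepatocytes. The probe set used for Cfp was called higher too, by 0.51. Of 23 endothelial markers 12 were higher and 6 lower (median 0.41). The part of these markers in the result was not tested.

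Of the further genes, Plau changed by -4.01 in the LSEC fraction of 3DHLK and by -4.03 in the LSEC fraction of 3DHL. F2r, a thrombin receptor, changed by -4.89 and Colec12, a scavenger receptor of the collectin family, by -4.65 in 3DHLK. In 3DHL Colec12 changed by -1.25, Colec11, a lectin pathway collectin, by -1.18 and Thbd by -2.08. Higher in the LSEC fraction were Fgl1, a fibrinogen-like protein, by 1.29 in 3DHLK and 1.54 in 3DHL, Hrg (histidine-rich glycoprotein) by 1.26 in 3DHLK, and Vtn by 0.54 in 3DHLK and 0.83 in 3DHL. Fcnb, a ficolin of the lectin pathway, was higher by 0.80 and 0.60, and F2rl1, a protease-activated receptor, by 1.14 and 0.57. C1qa changed by -1.86 in 3DHLK and the regulator Cd46 by -0.76 in 3DHL.

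The LSEC and KC fractions of 3DHLK were pulled from the same kind of culture. There 24 of 40 genes were higher in the LSEC fraction and 1 was lower, where 9.73% of all genes were higher and 5.35% lower, with medians of 0.76 for the 40 genes and -0.02 over all. Serpind1, which inhibits thrombin with heparin, read 10.22, 10.36 and 10.49 in the LSEC fraction, against 6.83 and 6.87 in the KC fraction, 3.50 ± 0.25 higher (adjusted p = 1.62e-09). C4bpb read 11.32, 11.50 and 11.62 in the LSEC fraction, against 7.93 and 8.03 in the KC fraction, 3.50 ± 0.26 higher (adjusted p = 3.59e-09). C4bpa was 2.43 ± 0.24 higher (adjusted p = 2.4e-07), and F3 changed by -1.10 ± 0.16 (adjusted p = 3.57e-05). Of the 24 hepatocyte markers 16 were higher in the LSEC fraction and 1 lower, with a median of 0.70, and 11 of 23 endothelial markers were lower. What part the hepatocyte markers have in the result was not tested.

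Of the further genes in that comparison, Hrg was higher in the LSEC fraction by 3.79, Vkorc1, the vitamin K reductase needed for clotting factors, by 1.32 and Vtn by 1.22. F2r changed by -1.38, Procr, the endothelial receptor of protein C, by -0.98, Cr1l, a complement regulator of rodents, by -0.61 and Cd93, a C1q receptor-like protein, by -0.58.

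The third question was what changes in hepatocytes and the LSEC fraction when KCs share the 3D culture. In hepatocytes 15 of 40 genes were higher in 3DHLK than in 3DHL, where 7.72% of all genes were higher and 3.76% lower. None of the 40 was lower by limma, and 3 were lower at an unadjusted p under 0.05. The median change was 0.46 for the 40 genes and -0.08 over all genes. Complement held 11 of the 15 genes, and 4 belonged to coagulation, its inhibitors and fibrinolysis (F3, Pros1, Tfpi and Plg).

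C1s read 12.99, 12.79 and 12.68 in hepatocytes of 3DHLK, against 10.68, 10.34 and 10.97 in 3DHL, 2.16 ± 0.25 higher (adjusted p = 1.55e-06). Its neighbour and partner C1r was 1.15 ± 0.10 higher (adjusted p = 3e-08). Both proteases of C1 had their highest mean of all groups in hepatocytes of 3DHLK. C6, of the lytic pore, read 9.59, 9.67 and 9.88 in 3DHLK, against 8.18, 8.23 and 8.26 in 3DHL, 1.49 ± 0.13 higher (adjusted p = 2.28e-08). Tfpi read 8.98, 9.04 and 9.01 in 3DHLK, against 7.51, 7.59 and 7.68 in 3DHL, 1.42 ± 0.15 higher (adjusted p = 6.27e-07). Arrays of 3DHLK and 3DHL did not overlap for C1s, C1r, C6 and Tfpi, nor for the genes named next. How many of all genes lacked overlap was not counted. F3, whose pathway Tfpi inhibits, was higher by 1.20, Cd55 by 1.24, Plg by 1.17, Cfd by 1.07, Pros1 by 1.02 and C5ar1 by 0.80.

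Markers of other cells moved in the same comparison. Markers of stellate cells and fibroblasts were higher for 12 of 19 in hepatocytes of 3DHLK (median 2.14), with list means of 10.01 to 10.28 in 3DHLK and 7.89 to 8.33 in 3DHL. Of 17 macrophage markers 11 were higher (median 0.76), with list means of 7.86 to 8.22 in 3DHLK and 6.71 to 7.12 in 3DHL. Col1a1, a collagen of activated stellate cells, averaged 13.01 in 3DHLK and 10.87 in 3DHL, and Adgre1 5.97 and 4.42. Of 24 hepatocyte markers 3 were higher and 1 lower. The part of these cells in the 15 rises was not tested. Of the further genes, Colec12 was higher by 3.56, C1qc, a chain of C1q, by 1.58, F2r by 2.09 and A2m by 1.64, and F2rl1 changed by -0.97.

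In the LSEC fraction 6 of 40 genes were higher in 3DHLK than in 3DHL and 3 were lower, where 3.58% of all genes were higher and 3.89% lower. The median change was 0.25 for the 40 genes and 0.04 over all genes. The higher count depended on the other arrays in the fit, since 17 genes were higher in a fit to these 6 arrays alone and 14 in a fit without KC monolayers. The count over all genes rose as well, from 509 in the main fit to 1351 and 1241 in these fits. C4bpb read 11.32, 11.50 and 11.62 in 3DHLK, against 9.39, 9.51 and 9.38 in 3DHL, 2.06 ± 0.23 higher (adjusted p = 4.89e-06). Its neighbour C4bpa was higher by 1.13. Serpind1 read 10.22, 10.36 and 10.49 in 3DHLK, against 9.03, 9.07 and 9.20 in 3DHL, 1.25 ± 0.22 higher (adjusted p = 0.000787). Arrays of the LSEC fraction of 3DHLK and 3DHL did not overlap for these genes, but lack of overlap was not counted over all genes.

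Plg in the LSEC fraction read 11.69, 11.95 and 11.99 in 3DHLK, against 10.63, 10.82 and 10.68 in 3DHL, 1.17 ± 0.17 higher (adjusted p = 8.41e-05). Mbl1 was higher by 0.97 and Tfpi by 0.64, but a further probe set of Tfpi gave 0.14 and was not called (limma adjusted p = 0.823). F3 changed by -1.07 ± 0.14 (adjusted p = 3.79e-05), Cd55 by -1.03 ± 0.26 (adjusted p = 0.0139) and C1r by -0.47 ± 0.10 (adjusted p = 0.00513). Without replicate 1 of the LSEC fraction of 3DHL the calls of Cd55 and C1r were lost and 1 gene was lower, and the calls of Cd55 and Tfpi were each lost under 4 of 13 alternatives. The fibrinogen genes were 0.25 to 0.35 higher in 3DHLK and were not called. Of 24 hepatocyte markers 7 were higher and 2 lower in the same comparison (median 0.22), and their part in the result was not tested.

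Of the further genes in the LSEC fraction, Hrg was higher by 1.79 and Fgl1 by 0.85 in 3DHLK. Plat, the tissue plasminogen activator, changed by -2.17, Procr by -0.87, Cr1l by -0.65 and Clu by -0.35 (adjusted p = 0.0495).

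**Figure D3:**
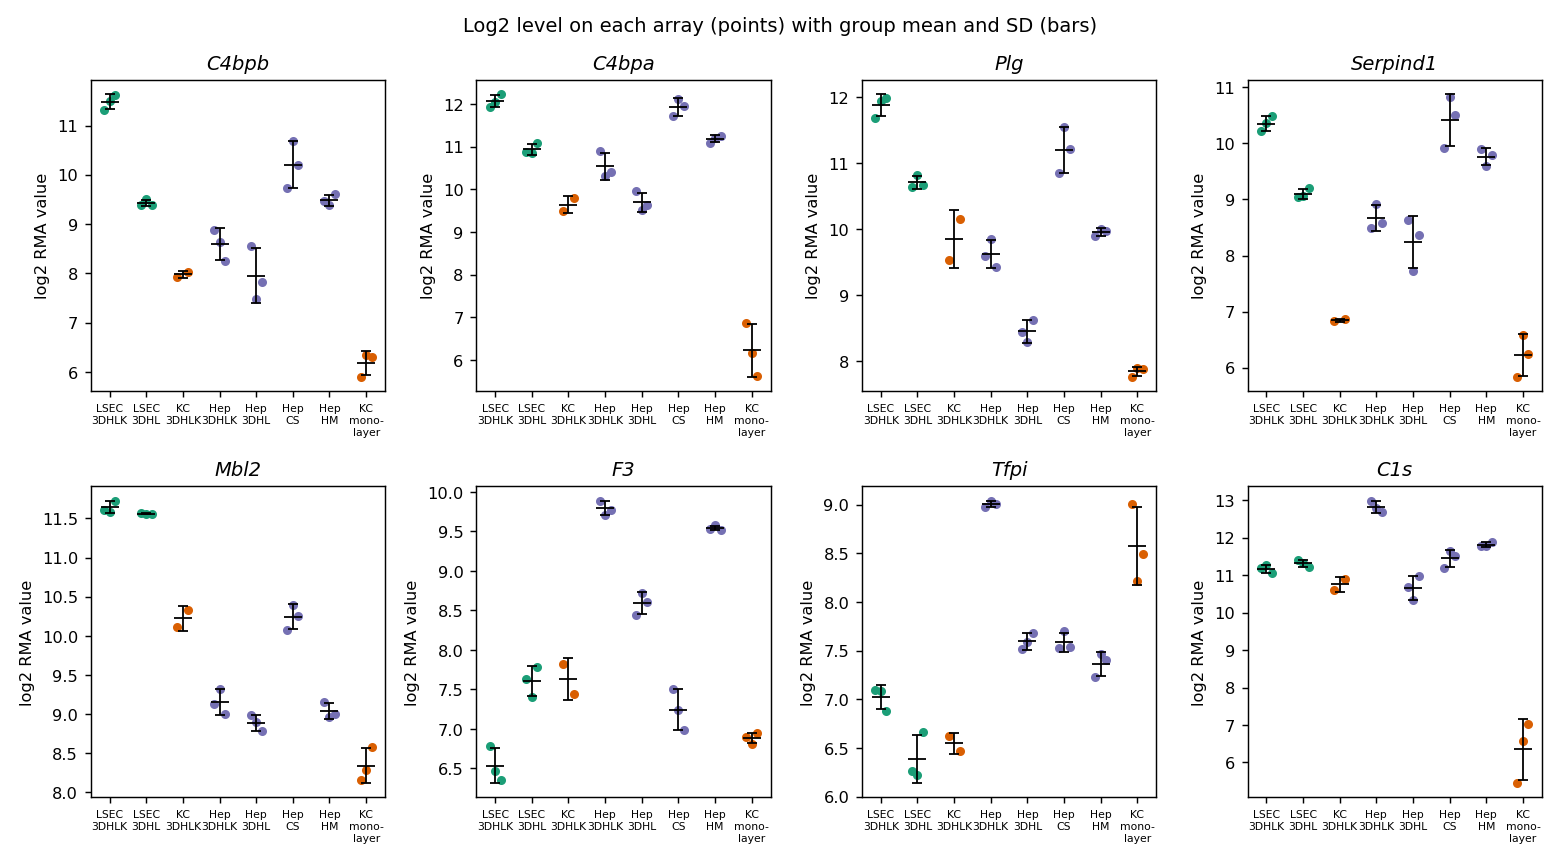
Log2 RMA value of 8 genes on each array (points) in 8 groups, with group mean and SD (bars). C4bpb and Plg are highest in the LSEC fraction of 3DHLK, and F3, Tfpi and C1s are highest in hepatocytes of 3DHLK.

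Plg, C4bpa and Tfpi were higher in 3DHLK in both hepatocytes and the LSEC fraction, while F3, Cd55 and C1r were higher in hepatocytes and lower in the LSEC fraction. For Tfpi the call in the LSEC fraction rests on 1 of its probe sets. Of all genes 0.492% were higher in both and 0.380% higher in hepatocytes and lower in the LSEC fraction. The difference between the changes was tested as an interaction, in which 3 of 40 genes had a more positive change in the LSEC fraction and 10 a more positive change in hepatocytes, where 3.51% and 6.81% of all genes did. The LSEC change minus the hepatocyte change was -2.30 ± 0.35 for C1s (adjusted p = 0.00012), -2.27 ± 0.20 for F3 (adjusted p = 1.07e-07) and -2.27 ± 0.36 for Cd55 (adjusted p = 0.000182). A further probe set of Cd55 gave -2.25. Of 17 macrophage markers 9 were lower in this difference (median -0.72), as were 8 of 19 markers of stellate cells and fibroblasts (median -1.88), and their part in the result was not tested. On the other side C4bpb had 1.42 ± 0.33 (adjusted p = 0.00596), Masp2 0.90 ± 0.26 (adjusted p = 0.0256) and Mbl1 0.90 ± 0.26 (adjusted p = 0.0267). Further probe sets of Masp2 gave 0.62 and -0.17, neither called. For Plg the changes were 1.17 in the LSEC fraction and 1.17 in hepatocytes, and the difference was not called. Among further genes the difference was -3.40 for Colec12, -1.28 for C1qc, -2.83 for F2r, -1.94 for Plat and 1.34 for Hrg.

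**Figure D4:**
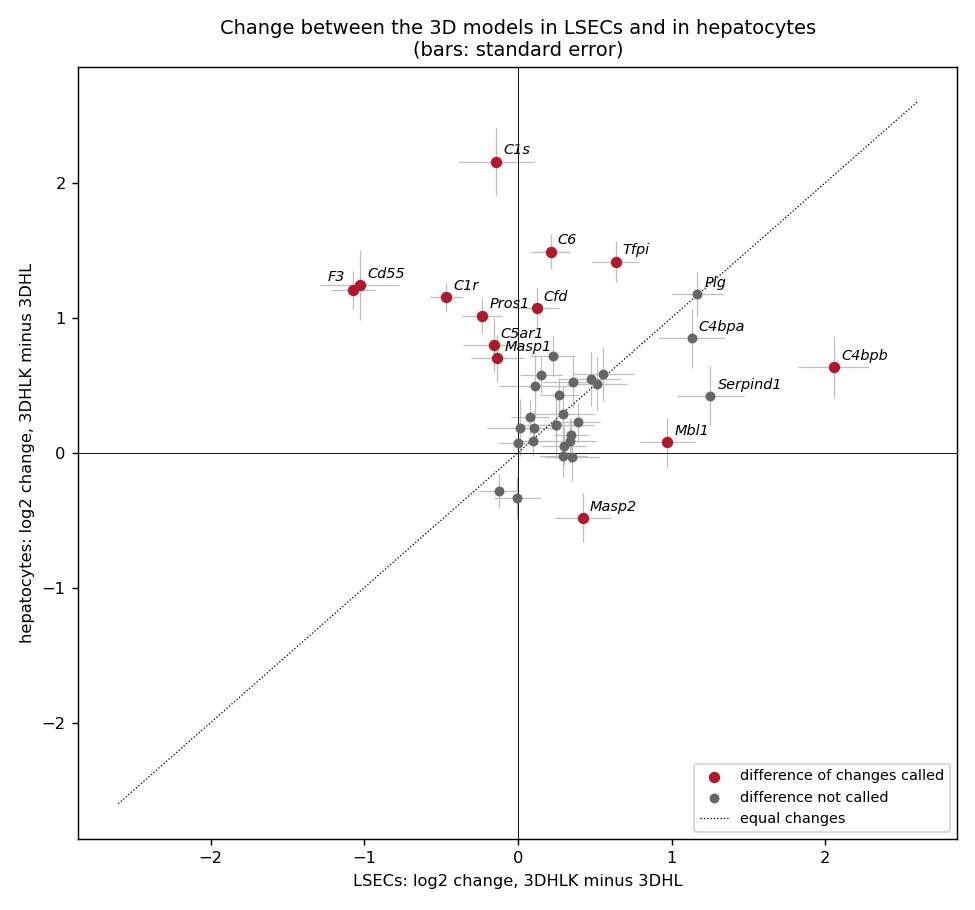
Log2 change in 3DHLK against 3DHL in the LSEC fraction (x axis) and hepatocytes (y axis) for 40 genes, with standard errors as bars and a dotted line of equal changes. F3, Cd55 and C1r lie at the upper left, and C4bpb lies at the right below the line.

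The last question was how the culture format bears on the factors in hepatocytes. In CS 18 of 40 genes were higher than in HM and 4 were lower, where 11.1% of all genes were higher and 10.7% lower. The median change was 0.31 for the 40 genes and 0.04 over all genes. C8g, the gamma subunit of C8, read 11.79, 12.03 and 12.00 in CS, against 10.54, 10.49 and 10.52 in HM, 1.42 ± 0.19 higher (adjusted p = 1.31e-05). Plg was higher by 1.24 ± 0.17 (adjusted p = 9.79e-06), Masp2 by 1.23 ± 0.18 (adjusted p = 3.45e-05) and Mbl2 by 1.20, while further probe sets of Masp2 gave 0.99 and 0.12. F10, F9 and Serpinc1 were higher by 1.07, 1.0 and 0.98.

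F3 was the gene of the 40 that fell most in CS. It read 7.5, 7.25 and 6.98 in CS, against 9.53, 9.58 and 9.52 in HM, a change of -2.30 ± 0.14 (adjusted p = 2.52e-10). Masp1 changed by -0.66 ± 0.17 (adjusted p = 0.00739), with further probe sets at 0.25 and -1.02, and F5 by -0.65 ± 0.15 (adjusted p = 0.00368). Fga, Fgb and Fgg read 13.32 to 13.49 on all 6 arrays, and none was called. The count of 18 fell to 10 without replicate 2 of CS and to 11 without replicate 1 of HM. Over all genes the higher count fell from 1574 to 1144 and 1143 in the same fits. Of 24 hepatocyte markers 13 were higher in CS and 1 lower (median 0.47), and of 19 markers of stellate cells and fibroblasts 10 were higher and 1 lower (median 0.55). Their part in the result was not tested. Of the further genes, Hrg was higher in CS by 1.78 and Fgl1 by 1.23, while Plau changed by -2.53, Plat by -1.27, Clu by -0.85 and Itgax, an integrin chain of complement receptor 4, by -0.78.

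In hepatocytes of 3DHL 17 of 40 genes were lower than in HM and 1 was higher, where 7.04% of all genes were higher and 4.70% lower. The median change was -0.38 for the 40 genes and 0.01 over all genes. This comparison uses the same HM arrays as that of CS. C4bpb read 8.56, 7.48 and 7.83 in 3DHL, against 9.47, 9.38 and 9.60 in HM, a change of -1.53 ± 0.23 (adjusted p = 0.0001). Serpind1 read 8.64, 7.73 and 8.36 in 3DHL, against 9.89, 9.59 and 9.79 in HM, a change of -1.52 ± 0.22 (adjusted p = 6.71e-05). Plg read 8.44, 8.29 and 8.63 in 3DHL, against 9.89, 10.01 and 9.97 in HM, a change of -1.51 ± 0.17 (adjusted p = 2.19e-06). The groups did not overlap in these 3 genes, although C4bpb and Serpind1 varied more in 3DHL. Lack of overlap was not counted over all genes in this comparison.

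C9 and C4bpa each changed by -1.49 in 3DHL, C1s by -1.15, F5 by -1.02 and F3 by -0.96. Masp2 was the 1 higher gene, by 0.66 ± 0.18 (adjusted p = 0.0208), and was not called without replicate 2 or 3 of HM or replicate 1 or 2 of 3DHL. Both further probe sets of Masp2 were called higher too, by 0.59 (limma adjusted p = 0.0299) and 0.94 (adjusted p = 0.000478). A further probe set of Cfp was called higher by 0.99, while further ones of Fga and Masp1 were called lower, at -0.67 and -0.64. The probe sets used for Cfp, Fga and Masp1 were not called. All 3 genes of fibrinolysis, Plg, Cpb2 and Serpinf2, were lower. Of 24 hepatocyte markers 5 were lower and 2 higher (median -0.16). Of the further genes, Vtn changed by -1.10, Clu by -0.56, Plau by -1.81 and F2rl1 by -0.53, and Colec11 and Serpina10, an inhibitor of factor Xa, were higher by 1.30 and 0.43.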

How the data were processed

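The authors checked RNA by its integrity number and hybridized amplified RNA to arrays, and deposited RMA values on the log2 scale, 1 per probe set, which rest on a background correction, a quantile normalization and a summary over probes. The RMA version is not given in the sources. Without detection calls, signal over background is unknown. Of 31099 probe sets, 57 controls, 436 that name several genes and 9780 that name none here were not used for tests. Samples were grouped from their labels. The 8 group means were fitted with limma 3.58.1 in R 4.3.3, contrasts were two-sided, and the Benjamini-Hochberg adjustment ran over all 14217 genes. Further probe sets were read from a separate limma fit, adjusted over the 20826 probe sets that name 1 gene. Their adjusted p-values are thus not on the same footing as those of the genes. The members, gene lists and tests were chosen with earlier results of these data known. All members may be named, with errors for the 3 largest called rises and falls per comparison, and of the further lists the 2 largest. Errors of some other members are given where their values are described. On simulated data for hepatocytes between the 3D models, 32, 92, 100 and 100% of genes changed by 0.5, 1, 1.5 and 2 log2 units were called, with 4.71% of calls false. For the LSEC fraction the shares were 30, 86, 98 and 100% (6.55% false), and for KCs 18, 80, 92 and 100% (6.45% false). The simulation gave every group the same spread per gene and changed 50 genes per size. It does not copy the wider spread of KC monolayers or the many genes called against them. Its shares for KCs therefore cannot be carried over to that comparison. Alternatives were the mean of all probe sets, a filter at the 30th percentile, cyclic loess, centring on 11 housekeeping genes, a replicate block, a fit to the arrays compared and leaving out each array. A fit without KC monolayers was added after seeing the data. Promoter sequences are from RefSeq (GRCr8), and matplotlib 3.10.9 (Python 3.11.15) drew the figures.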

Additional observations from a re-analysis of the deposited data

Results flagged for a closer look

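In 13 of 40 genes the change in 3DHLK against 3DHL differed between the LSEC fraction and hepatocytes by the interaction test of limma, 3 with a more positive change in the LSEC fraction and 10 in hepatocytes, where 3.51% and 6.81% of all genes were called. Of 17 macrophage markers 9 and of 19 markers of stellate cells and fibroblasts 8 went the same way as the 10, and their part was not tested. The LSEC change minus the hepatocyte change was -2.30 for C1s, -2.27 for F3, -2.27 for Cd55, -1.62 for C1r, -1.28 for C6, -1.25 for Pros1, -0.95 for C5ar1, -0.95 for Cfd, -0.83 for Masp1 and -0.78 for Tfpi. It was 1.42 for C4bpb, 0.90 for Mbl1 and 0.90 for Masp2. Further probe sets gave differences of 0.76 and 0.05 for Masp1, 0.62 and -0.17 for Masp2, -1.80 for Tfpi and -2.25 for Cd55. The calls of Masp1, Masp2, Mbl1, C5ar1 and Tfpi were each lost without at least 1 array. The groups of 2 or 3 arrays are too small for a check of single outlying arrays.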

How the results depend on the processing

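Of 233 called changes of the 40 genes, 190 kept their call under every alternative run and 43 lost it under at least 1. The sign turned only for Masp1 in the KC fraction against KC monolayers and for Cfp in the LSEC fraction against hepatocytes of 3DHL, both with the mean of all probe sets. Of 136 counts of called genes under alternatives other than leaving out an array, 126 were within 1.5 times the main count. With the 30th percentile filter, which left out 2 of the 40 genes, 3 genes were lower in HM than in KC monolayers (main 5). In hepatocytes of 3DHLK against 3DHL, 1 gene was lower with the mean of all probe sets and 3 without KC monolayers (main 0). In the LSEC fraction of 3DHLK against 3DHL, 17 were higher with only the arrays compared and 14 without KC monolayers (main 6). Over all genes 1351 and 1241 were higher in these fits (main 509). For the difference between the changes of the LSEC fraction and hepatocytes, 1 was higher under cyclic loess (main 3). In hepatocytes of 3DHL against HM, 2 were higher with the mean of all probe sets, 0 under cyclic loess, 4 with only the arrays compared and 2 without KC monolayers (main 1). The cause of these shifts was not tested.

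Leaving out each array in turn gave, for genes higher and lower, 30 to 32 and 6 to 6 in the KC fraction against KC monolayers, 34 to 34 and 5 to 6 in HM against KC monolayers, 18 to 20 and 3 to 3 in the LSEC fraction against hepatocytes of 3DHL, 17 to 20 and 8 to 10 in those of 3DHLK, and 22 to 24 and 1 to 1 in the LSEC fraction against the KC fraction. It gave 13 to 15 and 0 to 1 in hepatocytes of 3DHLK against 3DHL (1 without replicate 2 of 3DHLK), 5 to 6 and 1 to 3 in the LSEC fraction (1 without replicate 1 of 3DHL), 10 to 18 and 3 to 4 in CS against HM, and 0 to 1 and 13 to 16 in 3DHL against HM. For the difference of changes it gave 1 to 3 and 7 to 10, with 1 higher without replicate 1 of hepatocytes of 3DHL, replicate 1 or 3 of hepatocytes of 3DHLK or replicate 2 of the LSEC fraction of 3DHL.

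Replicate numbers were not used as pairs in the main fit. Same-numbered deviations correlated at -0.31 to 0.34 between the groups compared and at -0.36 to 0.34 over all pairs of groups. They correlated at 0.22 and 0.24 between the KC fraction and KC monolayers (2 pairs). Between the LSEC fractions of 3DHLK and 3DHL the values were 0.07 to 0.11. These correlations cannot show whether same-numbered arrays shared an isolation. The fit with the replicate block called 33 genes higher in the KC fraction (main 32), 21 in the LSEC fraction against hepatocytes of 3DHL (main 22) and 19 in 3DHLK (main 20), and left the other counts as they were. Against KC monolayers the median change over all genes was 0.27 in the KC fraction, 0.12 under cyclic loess and 0.02 with housekeeping centring, and in HM 0.22, 0.07 and 0.03. The share of all calls that were higher was 68.2% in the KC fraction, 56.7% under cyclic loess and 52.2% with housekeeping centring, and in HM 63.8, 55.0 and 53.6%. In hepatocytes of 3DHLK against 3DHL it was 67.3, 77.8 and 53.7%, and for the difference of changes 34.0% and, with housekeeping centring, 48.2%. No detection calls were used here, so levels near the low end have no known margin over background.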

Other observations

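Of the genes left out for sharing a probe set, the 1 probe set that names Kng1 (kininogen, the precursor of bradykinin) with Kng2 and Kng2l1 averaged 13.58 ± 0.09 (SD, n = 2) in the KC fraction, 13.87 ± 0.04 in the LSEC fraction of 3DHLK and 13.57 ± 0.02 in HM, against 7.53 ± 0.64 in KC monolayers (SD, n = 3 each). The 4 probe sets that name both Cfb (factor B) and C2, proteases of the C3 convertases, did not move alike. One averaged 11.69 ± 0.13 in the LSEC fraction of 3DHLK and 10.67 ± 0.09 in the LSEC fraction of 3DHL, and 10.59 ± 0.34 in hepatocytes of 3DHLK and 9.31 ± 0.22 in hepatocytes of 3DHL, against 6.85 ± 0.24 in KC monolayers (SD, n = 3 each). Another averaged 9.64 ± 0.09 in the LSEC fraction of 3DHLK, 9.31 ± 0.17 in hepatocytes of 3DHLK and 9.94 ± 0.24 in KC monolayers. These were chosen after their values were seen, and no test was run on them.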
